A study of Arabidopsis thaliana with 30 samples.

Results

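The mitochondria-encoded transcripts of Arabidopsis thaliana seedlings were followed through 30 RNA-seq libraries of roots and shoots. Features were taken by their ATMG code, the prefix of mitochondrial loci, and kept where FPKM was above 0 in at least 3 libraries. FPKM is the number of read pairs on a feature scaled to its length in kilobases and to the depth of the library. The rule kept 77 of 152 mitochondrial features, in a table of 33199 features in all. Another 59 mitochondrial features were at 0 in every library and 16 were above 0 in 1 or 2 libraries, with 28 reads between them. The seedlings were wild type Col-0 or the mutant ahp4 (allele ahp4-2), which affects AHP4, a histidine phosphotransfer protein of cytokinin signalling. At 7 days of age they were held for 2 h in liquid MS medium with 100 nM 6-benzylaminopurine (BA, a cytokinin) in DMSO, or with DMSO alone (mock), and were divided at the hypocotyl into pools of roots and of shoots. Col root mock, Col root BA, ahp4 root mock, ahp4 root BA, Col shoot mock and Col shoot BA had 4 libraries each, and ahp4 shoot mock and ahp4 shoot BA had 3 each. Only 1 mutant allele was used, every library came from pooled plants, and no label states that replicate libraries stem from independent cultures. The p-values below therefore describe variation among these libraries, part of which may be technical.

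The plant mitochondrial genome encodes subunits of the respiratory complexes and of ATP synthase, proteins that mature cytochrome c, part of the mitochondrial ribosome, and ribosomal and transfer RNAs. All other mitochondrial proteins are encoded in the nucleus. Nuclear messenger RNAs carry long stable poly(A) tails, whereas in plant mitochondria a poly(A) tail is mostly a mark for decay and steady-state transcripts largely lack one. The libraries were made from RNA caught on poly-T beads and primed with random hexamers, so the values below are what passed that selection and are not levels of total mitochondrial RNA. How much of each mitochondrial transcript the beads retained was not tested.

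Libraries held 9205127 to 13779004 reads on features. In 1 library labelled ahp4 root mock (replicate 1), the genotype and treatment tags read Col-0 and BA while its title and description read ahp4 mock; it was grouped by its title. Its mitochondrial share of reads, 0.0458%, was the lowest of the 4 in that group, and results without it are in the ranges given in the closing section. AOX1A, a nuclear gene that rose with BA in roots, was at 15.0 FPKM in that library. It was at 14.4 to 18.6 FPKM in Col root mock and 29.6 to 61.6 in Col root BA. Shoot and root markers separated the organs: LHCB1.3, a light-harvesting protein, was at 14.8 to 120 FPKM in roots and 15137 to 25133 FPKM in shoots, and PYK10, a root beta-glucosidase, was at 4728 to 8219 FPKM in roots and 350 to 802 FPKM in shoots. RBCS1A and LHCB1.4 (shoot) and MRN1 and THAS1 (root) likewise had no overlap between organs, with MRN1 at 0 in all 14 shoot libraries. AHP4 had a mean FPKM of 1.01 ± 0.495 (SD, n = 4) in Col root mock and 0.378 ± 0.0409 (n = 4) in ahp4 root mock, and of 5.26 ± 3.59 (n = 4) and 1.51 ± 0.877 (n = 3) in the mock shoots.

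Mitochondrial transcripts were a small and very uneven fraction of these libraries. The 77 features together took 92624 reads, 0.0286% of all reads over the 30 libraries. Of these, rrn18 (ATMG01390), the RNA of the small mitochondrial ribosomal subunit, took 46870. ATMG00020, a 2568-base feature, took 37167, and ATMG00030, a 324-base feature, took 4223; neither could be matched, by length or by reference text, to a named gene. The 26S ribosomal RNA gene of the RefSeq annotation, 3169 bases long, was matched to no feature by length or text. The gene list used here gives ATMG00020 as the feature of that gene. ATMG00020 may therefore be the 26S ribosomal RNA, but the name could not be checked and the code is kept. These 3 features held 95.3% of the mitochondrial reads, and the other 74 shared 4364 reads. Of all 77, 19 had 100 reads or more over the 30 libraries, 33 had 10 to 99 and 25 had fewer than 10, and 8 were above 0 in every library. A library showed 37 to 47 of the features above 0 in roots (median 42.5) and 25 to 41 in shoots (median 32.5). For most members the depth therefore cannot show a difference of moderate size, and for them a missing call says little.

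Per base of transcript the order was led by the same features. Mean FPKM over the 30 libraries was 67.5 for rrn18, 39.9 for ATMG00020 and 36.2 for ATMG00030, which ranked 1670, 2895 and 3197 in the whole table. Within single libraries rrn18 ranked between 656 and 1787 among features above 0 in roots (median 911.5) and between 3121 and 6912 in shoots (median 4642.5). Next came nad5B at 4.68 FPKM, but that feature is 22 bases long and rests on 33 reads, each worth 2.91 to 5.68 FPKM. ATMG00660 (2.24 FPKM, 334 reads), ATMG01370 (1.96, 208 reads) and rrn5, the 5S ribosomal RNA (1.69), followed. Then came nad4L (1.47), nad1C (1.00) and rpl16 (0.973). The other unnamed features of highest mean FPKM were ATMG01330 (0.907), ATMG00670 (0.860), ATMG01130 (0.836), ATMG09950 (0.814), ATMG01120 (0.793) and ATMG00690 (0.574). Below the leading 3 features, then, protein-coding members were at or under a few FPKM.

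Among the messenger RNAs, those of complex I, the NADH dehydrogenase that feeds electrons into the respiratory chain, had the most reads; RPM below is reads relative to the library's total, without regard to length. Its 11 members held 551 reads in roots and 230 in shoots, and per library 2.07 to 5.15 RPM (median 3.23) in roots and 0.8286 to 2.33 (median 1.48) in shoots. Most members were rare: nad5C had 68 reads over all libraries, nad5A 62, nad3 and nad4 34 each, nad1A 17 and nad2B 5. The 3 complex IV members, cox1, cox2 and cox3, encode core subunits of cytochrome c oxidase and held 322 and 136 reads; cox3 had 4 of them. The 4 ATP synthase members held 144 and 53 reads, of which atp4 had 169 in all, atp1 14, atp8 8 and atp9 6. The 5 ribosomal proteins held 480 reads in roots and 151 in shoots, with rpl2 at 63 reads, rps4 at 24 and rps12 at 18 in all. The 4 members of cytochrome c maturation held 106 and 73 reads, with ccmB at 108 in all, ccmFN1 at 34, ccmFC at 24 and ccmFN2 at 13. In every one of these groups the ranges of root and shoot libraries overlapped in RPM. In cytochrome c maturation the medians were close, at 0.538 in roots and 0.548 in shoots.

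Per kilobase, among the protein genes that could be compared, those with little or no near-identical copy in the nucleus had more reads than those copied there in full. Chromosome 2 of Arabidopsis carries a large insertion of mitochondrial DNA, and a read from a gene inside it matches 2 places. In RefSeq's TAIR10.1 assembly, the longest copies of at least 99% identity to mitochondrial protein genes lay on chromosome 2 between 3239693 and 3503476, apart from a 34-base stretch of nad9 on chromosome 1. Of 26 protein genes that could be compared, 8 had less than 50% of their length copied: atp4, ccmB, cox1, cox2, nad4L, nad9, rpl16 and rps3. These had 174 to 495 reads per kilobase over the 30 libraries (median 243). The kilobases are those of the RefSeq coding sequence. Some counted features were longer, as for atp9 (504 bases against 225) and cox3 (1447 against 798). The 17 genes copied over their whole length had 0 to 95.2 reads per kilobase (median 21.2), and ccmC, cob, rpl5 and rps7 had none. The gene nad5, copied over 71.9% of its length, had 81.1. Among these 26 genes the ranges of the fully copied and the largely uncopied did not overlap. The 8 largely uncopied genes held 36.0% of the reads of the 74 minor members. The other 6 of 32 RefSeq protein genes (atp6, matR, mttB, nad1, nad2 and nad6) were not compared, and their features were named only in part or not at all. Of them nad1, copied over 80.4% of its length, had 128 reads per kilobase on its named features alone. Whether the separation holds with these 6 was not tested.

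**Figure D1:**
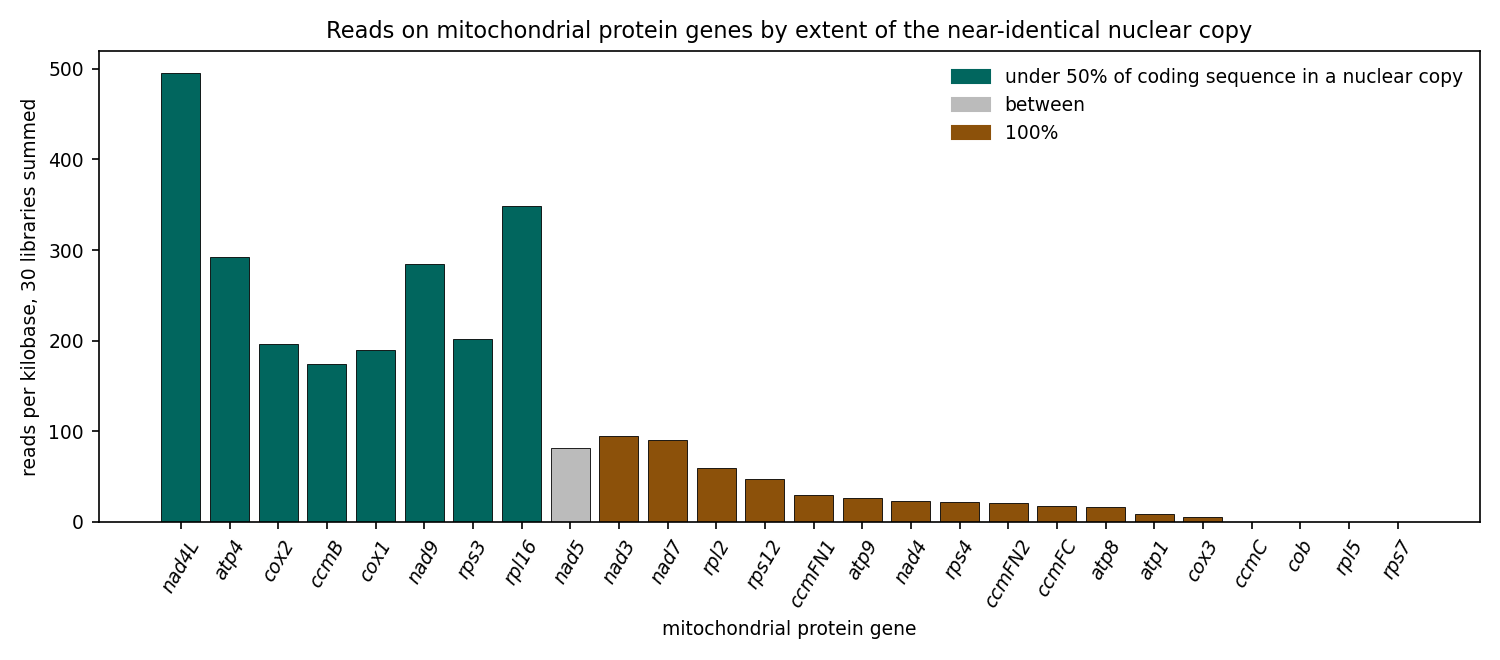
Reads per kilobase of RefSeq coding sequence over the 30 libraries (vertical axis) for 26 mitochondrial protein genes (horizontal axis). Bars are coloured by how much of the gene has a copy of at least 99% identity in the nuclear chromosomes. The 8 genes copied over less than 50% of their length sit at 174 to 495 reads per kilobase, and the 17 genes copied in full sit at 0 to 95.2.

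Reference text pairs 23 members with a nuclear feature. The mitochondrial feature had more reads in 15 pairs, the nuclear one in 7, and 7 of the nuclear features had 0 reads. None of the paired nuclear features was above 344 reads over the 30 libraries. The feature AT2G07698 had 285 reads against 14 for atp1, and AT2G07715 had 344 against 63 for rpl2, the most among the nuclear ones, while ATMG01090 had 89 against 0 for its partner. How the authors' counting treated reads that match several places is not given in the sources used here, and the part of the copies in these low values was not tested. Values of copied members are therefore uncertain, while rrn18 had no such copy. Those of rps3 and rpl16 are uncertain for another reason: the annotated genes overlap at their ends, and reads there belong to both.

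The largest contrast in the mitochondrial transcripts was between organs. In mock Col seedlings the 77 features held 0.0446% ± 0.0101 of reads in roots and 0.00751% ± 0.00117 in shoots (SD, n = 4 each), a ratio of 5.94. In mock ahp4 seedlings they held 0.0501% ± 0.00312 in roots (n = 4) and 0.00832% ± 0.00448 in shoots (n = 3), a ratio of 6.02. With BA the root-to-shoot ratio was 5.17 in Col and 4.97 in ahp4. No root library overlapped a shoot library in any of these comparisons. Summed FPKM, which differs from the share of reads both in library scale and in its weighting by feature length, gave a smaller ratio. It was 236 ± 54.6 in mock Col roots and 75.8 ± 10.5 in mock Col shoots, a ratio of 3.12, and the ratio in mock ahp4 was 3.64. In bulk tissue, fewer cells of a type and less RNA per cell cannot be told apart. Chloroplast-encoded features, 106 of which were above 0 in at least 3 libraries, went the other way, with 0.00251% of reads in mock Col roots and 0.0339% in shoots. The nuclear 18S ribosomal RNA, which also lacks a long poly(A) tail, held 0.206% ± 0.0689 of reads in mock Col roots and 0.151% ± 0.0531 in shoots (n = 4 each), and those groups overlapped. In mock ahp4 the nuclear 18S held 0.279% ± 0.0442 in roots (n = 4) and 0.152% ± 0.0844 in shoots (n = 3). The overlap there came from ahp4 shoot mock replicate 3, at 0.249%, beside 0.115% and 0.0927% in replicates 1 and 2. That library also had the highest mitochondrial share of its group, 0.0134%. With BA the ratio for 18S was 1.13 in Col and 1.04 in ahp4, with overlap. The part of RNA carry-over past the beads in the organ contrast was not tested.

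**Figure D2:**
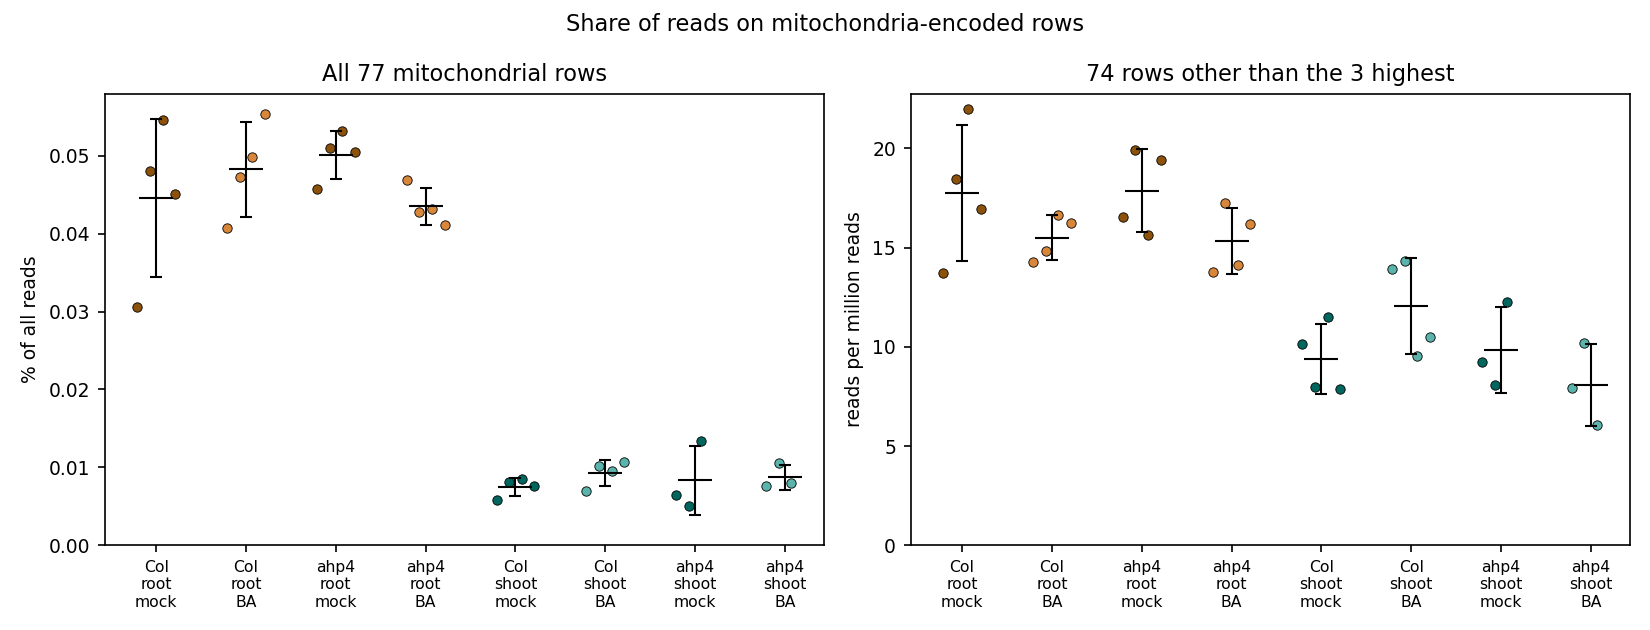
Left, percent of all reads on the 77 mitochondrial features; right, RPM on the 74 features other than rrn18, ATMG00020 and ATMG00030; points are libraries by group, and the bars give mean ± SD. Root groups lie above shoot groups without overlap on the left (0.0446% against 0.00751% in mock Col). The gap is narrower on the right (17.8 against 9.37 RPM in mock Col), and the Col BA groups overlap there.

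The organ contrast was carried by the 3 leading features. FPKM of rrn18 was 52.1, 101, 102 and 90.5 in Col root mock and 15.5, 26.8, 21.1 and 20.8 in Col shoot mock. In ahp4 it was 95.7, 135, 134 and 119 in root mock and 18.3, 16.1 and 37.2 in shoot mock. Roots were thus above shoots in every mock library of both genotypes. The difference in log2(FPKM + 1) was 1.96 ± 0.22 (SE) in Col (adjusted p = 5.61e-09, limma with Benjamini-Hochberg adjustment over all genes tested) and 2.38 ± 0.23 in ahp4 (adjusted p = 6.35e-10). With BA, rrn18 stayed apart by organ, at 89.9, 102, 114 and 134 FPKM in Col roots and 20.9, 32.0, 32.4 and 32.9 in Col shoots, and at 106, 96.0, 103 and 96.3 in ahp4 roots and 25.3, 31.3 and 23.8 in ahp4 shoots.

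ATMG00020 had the same order of organs. Its FPKM was 46.8, 67.0, 84.4 and 68.6 in Col root mock and 8.38, 14.8, 16.0 and 15.3 in Col shoot mock. In ahp4 it was 59.2, 63.9, 61.2 and 59.9 in root mock and 9.92, 7.14 and 24.9 in shoot mock, where the third library stood well above the other two. The difference in log2(FPKM + 1) was 2.22 ± 0.24 in Col (adjusted p = 2.89e-09, limma) and 2.23 ± 0.26 in ahp4 (adjusted p = 1.18e-08). FPKM of ATMG00030 was 37.1, 50.9, 61.1 and 52.4 in Col root mock and 13.9, 14.7, 12.3 and 14.9 in Col shoot mock. In ahp4 it was 67.8, 55.7, 67.6 and 65.2 in root mock and 9.54, 7.42 and 21.8 in shoot mock. The same ahp4 shoot library was again the highest of its group, and still below every root library. The difference was 1.76 ± 0.21 in Col (adjusted p = 2.23e-08, limma) and 2.36 ± 0.23 in ahp4 (adjusted p = 3.91e-10). Over all 16 root and 14 shoot libraries these were the 3 members whose organs did not overlap in FPKM. Their medians were 102 and 24.5 FPKM for rrn18, 62.4 and 14.6 for ATMG00020, and 55.2 and 14.3 for ATMG00030.

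**Figure D3:**
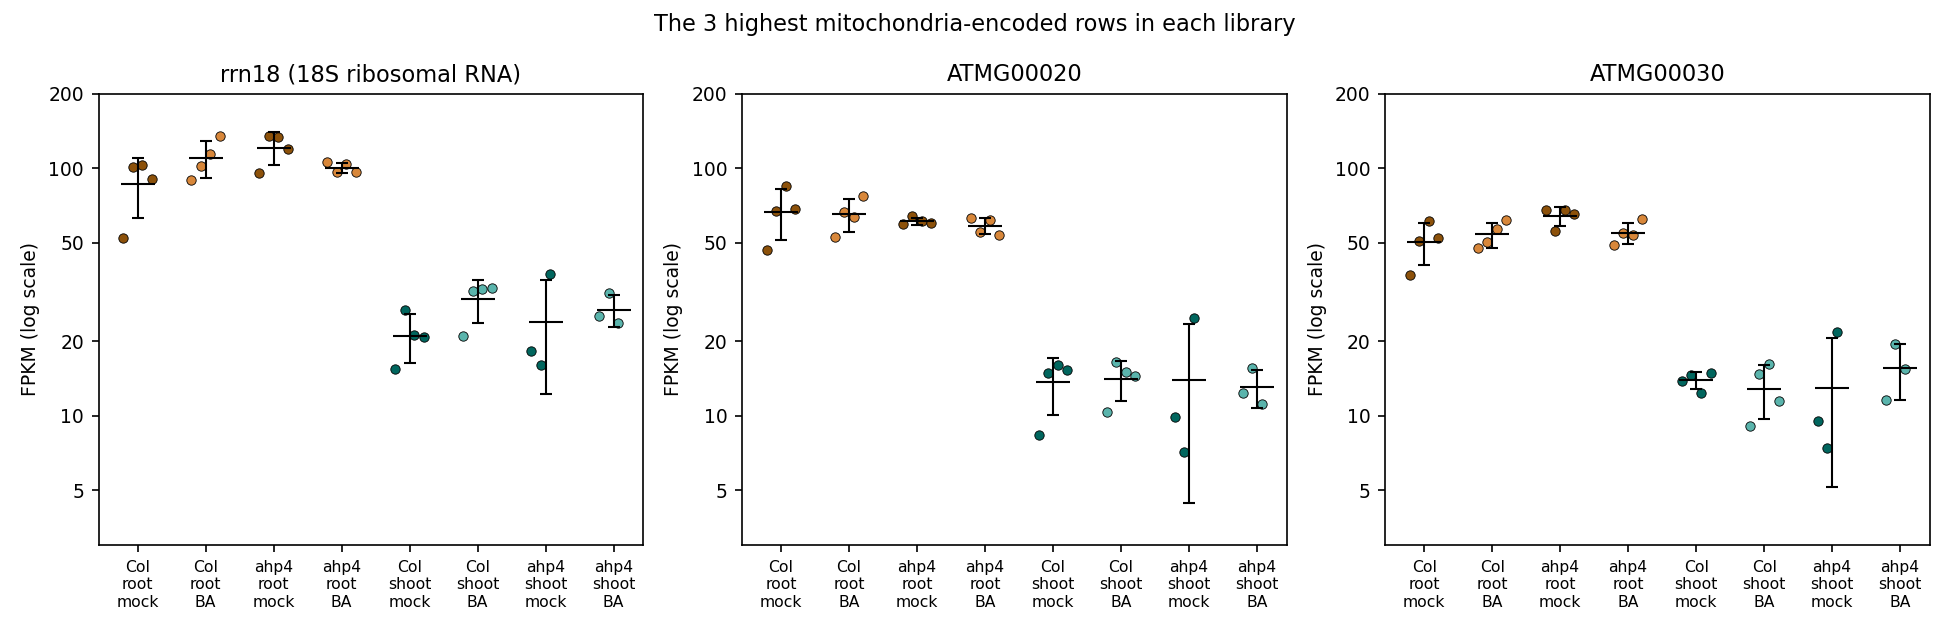
FPKM (log axis) of rrn18, ATMG00020 and ATMG00030 in each of the 30 libraries by group, with bars at mean ± SD. All root libraries lie above all shoot libraries in each panel, and mock and BA groups of an organ overlap.

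The Col root mock library replicate 1 was the lowest of all root libraries for each of these 3 features and in mitochondrial share, at 0.0306% of reads, and had 119 FPKM of LHCB1.3, near the top of the range in roots. Col root BA replicate 4, with 120 FPKM of LHCB1.3, had the highest mitochondrial share, 0.0554%. The 3 features did not move in fixed proportion. The ratio of rrn18 to ATMG00020, each in FPKM, was 1.29 in Col root mock and 1.98 in ahp4 root mock, 1.58 in Col shoot mock and 2.10 in Col shoot BA, and ran from 1.11 to 2.28 over single libraries.

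Outside the leading features the organ contrast was smaller. The other 74 features together had 17.8 ± 3.42 RPM in mock Col roots and 9.37 ± 1.76 in mock Col shoots (SD, n = 4 each), a ratio of 1.90 without overlap, and 17.9 and 9.85 in mock ahp4. By summed FPKM the same ratio in mock Col was 1.21 and the groups overlapped. Of the 16 such features with 100 reads or more, 13 had a higher RPM in roots, with ratios from 0.648 to 4.60 and a median of 1.78. Library scale and weighting by length both differ between these measures. For the scale alone, the median log2 difference of all genes between mock Col roots and shoots was 0.07 on the authors' scale and 0.53 when libraries were scaled by their read totals.

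Of the 24 members with enough signal to be tested, 5 were higher in roots of mock Col and 0 were lower (limma, adjusted p under 0.05). Over all 20818 genes tested, 38.3% were higher in roots and 32.9% lower, so the members' count upwards was below the background share. Without Col root mock replicate 1, 8 members were called in Col, 7 higher and 1 lower. In mock ahp4, 7 members were higher and 1 was lower, beside 37.9% and 32.1% of all genes. The members' median log2 difference was 0.22 in Col and 0.21 in ahp4, against 0.07 over all genes in both; in Col it was 0.38 with scaling by read totals and -0.09 after quantile normalization. At an unadjusted p under 0.05, 7 and 9 members passed, against 73.2% and 72.1% of all genes. A member can enter the fit through 1 organ alone, so these counts and medians are no support for the contrast.

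The further calls rested on a few reads per library. Both ribosomal proteins called entered the fit through their root libraries, with FPKM of 1 or more in only 1 shoot library each, so their tests had to favour roots and are given as description. The gene rpl16, of the large subunit, was at 2.49, 0.624, 1.83 and 1.22 FPKM in Col root mock and at 0.213, 0.463, 0 and 0.224 in Col shoot mock, and the root libraries held 4 to 21 reads. It was higher in Col roots by 1.01 ± 0.28 on the log2(FPKM + 1) scale (adjusted p = 0.0024, limma) and in ahp4 roots by 0.89 ± 0.30 (adjusted p = 0.0111), where FPKM was 1.82, 2.12, 1.21 and 1.49 in roots and 0.309, 0.495 and 0.468 in shoots. The small-subunit protein rps3 was at 0.981, 1.12, 0.731 and 1.12 FPKM in ahp4 root mock and 0.250, 0.373 and 0.227 in ahp4 shoot mock, a difference of 0.63 ± 0.16 (adjusted p = 0.00136). Neither gene's mock ahp4 groups overlapped. The mock Col groups of rps3 did, at 0.306 to 0.691 FPKM in roots and 0.207 to 0.578 in shoots.

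In complex I, 3 members were called in 1 genotype each; whether the genotypes differed in the organ contrast was not tested. The exon feature nad1C had 16 reads in the 4 Col root mock libraries and 0 in the 4 Col shoot mock libraries. With the shoots set at the limit that a count of 0 allows, 3 reads over the group, the root-to-shoot ratio in RPM was 5.09. That ratio takes the 16 root reads as counted. It allows for counting error in shoots only, and neither for that in roots nor for variation among libraries. Its difference in log2(FPKM + 1) was 0.95 ± 0.32 (adjusted p = 0.0101, limma), a value that depends on the pseudocount. In mock ahp4 it was at 1.29, 2.82, 1.28 and 1.41 FPKM in roots and 1.05, 0.280 and 3.18 in shoots, and those groups overlapped. In mock ahp4, nad4L was at 2.16, 2.42, 2.69 and 2.95 FPKM in roots and 0.827, 0.294 and 0.417 in shoots, a difference of 1.24 ± 0.39 (adjusted p = 0.00593). There nad9 was at 1.14, 2.14, 0.995 and 2.19 FPKM in roots and 0, 0.777 and 0.661 in shoots, a difference of 0.83 ± 0.28 (adjusted p = 0.00986), and that call was lost without the shoot library at 0. The 1 member lower in roots, ATMG01130, was at 0.766, 0, 1.01 and 0.836 FPKM in ahp4 root mock and 1.302, 1.94 and 2.36 in ahp4 shoot mock, a difference of -0.83 ± 0.33 (adjusted p = 0.0263), and was not called in 6 of 15 alternatives. In mock Col its groups overlapped, and with scaling by read totals it was called there as higher in roots. The mock Col groups of nad4L overlapped too, at 0.211 to 3.61 FPKM in roots and 0.412 to 2.79 in shoots. So did those of nad9, at 0.335, 1.18, 0.860 and 0.719 FPKM in roots and 1.41, 0.654, 1.05 and 0.843 in shoots. The split of calls depended on the scale. After quantile normalization the 3 leading features were the only ones higher in roots in either genotype, and 3 members (ATMG01370, ATMG01330 and ATMG00670) were lower in Col and 4 (ATMG00660, ATMG01330, ATMG00670 and ATMG01130) in ahp4. With scaling by read totals 8 were higher and 0 lower in Col.

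**Figure D4:**
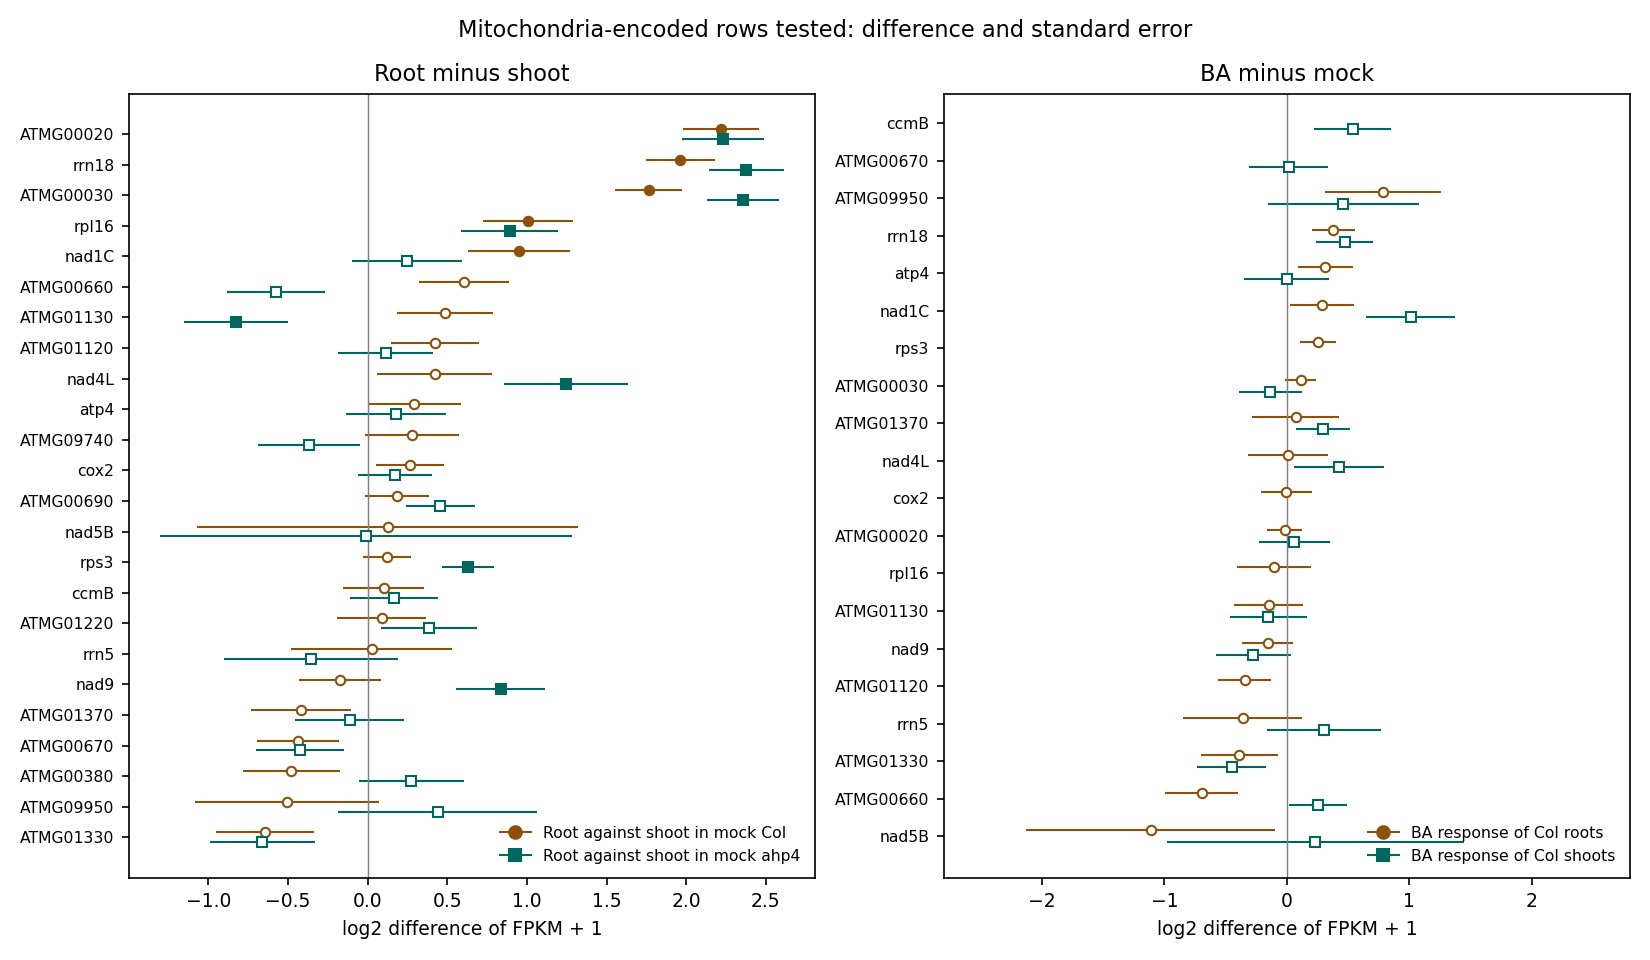
Differences in log2(FPKM + 1) with SE for the members tested; left, root minus shoot in mock Col (circles) and mock ahp4 (squares); right, BA minus mock in Col roots and Col shoots; filled symbols are called at an adjusted p under 0.05. On the left rrn18, ATMG00020 and ATMG00030 lie between 1.76 and 2.38, and on the right no symbol is filled.

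BA for 2 h left no member called in any of the 4 comparisons (limma, 18 members tested in roots and 16 in shoots). The treatment itself was visible in the libraries: 20.5% of all genes were called in Col roots, 20.7% in ahp4 roots, 8.15% in Col shoots and 3.92% in ahp4 shoots. At an unadjusted p under 0.05 there were 2, 3, 1 and 1 members, against 33.4%, 33.2%, 23.3% and 17.7% of all genes, and limma-voom on rebuilt reads called 0 in each. With the replicate number as a block, nad4L was called in ahp4 roots. The lowest adjusted p-values were 0.111 (ATMG00660, -0.70 ± 0.30) in Col roots, 0.0621 (nad4L, -0.89 ± 0.32) in ahp4 roots, 0.105 (nad1C, 1.01 ± 0.36) in Col shoots and 0.181 (rrn5, -1.40 ± 0.54) in ahp4 shoots, all in log2(FPKM + 1) with SE. The mitochondrial share of reads was 1.08 times the mock value in Col roots, 0.868 times in ahp4 roots, 1.24 times in Col shoots and 1.05 times in ahp4 shoots, and mock and BA libraries overlapped each time. In ahp4 roots the overlap came from the mock library with conflicting tags, at 0.0458%; the other 3 mock libraries, at 0.0505% to 0.0532%, were above the 4 BA libraries, at 0.0411% to 0.0468%.

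For the well-counted features the BA estimates were small beside the organ contrast. The BA change of rrn18 in log2(FPKM + 1) was 0.38 ± 0.18 in Col roots (adjusted p = 0.147, limma), -0.25 ± 0.18 in ahp4 roots, 0.47 ± 0.23 in Col shoots (adjusted p = 0.239) and 0.25 ± 0.27 in ahp4 shoots. For ATMG00020 it was -0.02 ± 0.14, -0.06 ± 0.14, 0.06 ± 0.29 and 0.07 ± 0.34 in the same order. For ATMG00030 it was 0.11 ± 0.13, -0.22 ± 0.13, -0.13 ± 0.26 and 0.36 ± 0.30. The members tested had median changes of -0.01, -0.20, 0.24 and -0.03, against medians of all genes between -0.04 and -0.00.

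The members with the smallest p-values for BA had few reads and varied widely within groups. ATMG00660 was at 1.71, 4.68, 4.54 and 3.85 FPKM in Col root mock and 0.961, 2.01, 2.10 and 2.26 in Col root BA, but at 1.09, 3.08, 0.362 and 1.19 in ahp4 root mock and 2.86, 2.48, 2.70 and 1.301 in ahp4 root BA. Its groups overlapped in both genotypes; it was called as lower with BA in Col roots without Col root mock replicate 1, and as higher with BA in ahp4 roots without ahp4 root mock replicate 2. In ahp4 roots nad4L was at 0.531, 1.14, 0.802 and 1.29 FPKM with BA, all below the 4 mock values given above, and it was called there when the 2 groups were fitted alone. In Col shoots nad1C was at 0 in all mock libraries and at 1.48, 0, 1.56 and 1.58 FPKM with BA. Without the BA library at 0, nad1C was called in Col shoots.

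No member was called between ahp4 and Col in mock roots, BA roots, mock shoots or BA shoots (limma), and limma-voom also called 0. Few genes of any kind were: 0.0875% in mock roots, 0.0257% in BA roots, 0.00548% in mock shoots and 0.00548% in BA shoots. At an unadjusted p under 0.05 there were 5, 0, 2 and 2 members, against 9.03%, 3.94%, 2.06% and 4.48% of all genes; as shares of the members tested these were 27.8%, 0%, 12.5% and 12.5%. The 5 in mock roots were rrn18 (0.52 ± 0.18), ATMG00030 (0.36 ± 0.13), nad9 (0.55 ± 0.21), rps3 (0.38 ± 0.15) and ATMG00660 (-1.003 ± 0.30), and the lowest adjusted p among them was 0.367. The ratio of mitochondrial share in ahp4 to that in Col was 1.12 in mock roots, 0.901 in BA roots, 1.11 in mock shoots and 0.936 in BA shoots, with overlapping libraries throughout.

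The tests of differences between responses gave no member either. The BA response of Col roots differed from that of Col shoots in 11.6% of all genes and in 0 members, with 2 members, ATMG00660 and ccmB, at an unadjusted p under 0.05, against 24.8% of all genes. The BA response of ahp4 differed from that of Col in 0% of genes in roots and 0% in shoots, with 4 of 18 and 3 of 16 members at an unadjusted p under 0.05, against 2.71% and 1.84% of all genes. By limma-voom 0 members were called in each of the 3 tests.

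Nuclear genes for the same complexes were read alongside. Of 31 nuclear genes of the respiratory chain and ATP synthase, 27 were higher in mock Col roots than shoots and 1, GAMMA CA1, a carbonic anhydrase-like subunit of complex I, was lower by 0.23 on the log2 scale. In mock ahp4, 28 were higher and 0 lower. Of all genes, 38.3% and 37.9% were higher in these comparisons. The median difference was 0.76 in Col and 0.82 in ahp4, against 0.07 over all genes. The smallest p was that of AT3G27240, a cytochrome c1 of complex III, with 1.28 ± 0.09 (adjusted p = 1.32e-13, limma). The next were 2 ATP synthase beta subunit genes, AT5G08680 (0.95) and AT5G08670 (0.82), near-identical copies whose reads may be split, and AT5G13430 (1.09). The median of the mitochondrial members tested in mock Col was 0.22, but the 2 medians are not a like comparison. Nearly all of those members were at a few FPKM or less, where the pseudocount of 1 shrinks changes, and a member could enter the fit through 1 organ alone.

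With BA few respiratory chain genes were called outside Col roots. In Col roots 7 of the 31 fell and 1, GAMMA CA1, rose by 0.22, with a list median of -0.17. Of all 19418 genes tested there, 1700 fell and 2282 rose, together 20.5%. The list counts were 1 down and 0 up when the 2 groups were fitted alone and 14 down and 0 up with scaling by read totals. In ahp4 roots 1 fell, in Col shoots 1 fell and in ahp4 shoots 0 were called, beside 20.7%, 8.15% and 3.92% of all genes called. AOX1A, the alternative oxidase that takes electrons past complexes III and IV, went from 16.4 ± 1.74 to 44.5 ± 13.3 FPKM in Col roots (1.34 ± 0.21 on the log2 scale, adjusted p = 1.89e-04, limma). It rose in ahp4 roots as well, from 15.9 to 52.8 FPKM (1.64 ± 0.21, adjusted p = 2.91e-05). In shoots its changes were 0.09 and -0.00 and were not called, and the difference between the BA responses of Col roots and shoots was 1.25 ± 0.26 (adjusted p = 0.00213).

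Of 8 nuclear genes for the making, editing or decay of mitochondrial RNA, 2 were higher and 2 lower in mock Col roots than in shoots, beside 38.3% and 32.9% of all genes. AT5G14580, a polyribonucleotide nucleotidyltransferase of the family that degrades polyadenylated mitochondrial RNA, was at 6.35 FPKM in roots and 1.82 in shoots (1.39 ± 0.13, adjusted p = 3.09e-10, limma). EMB2730, of the RNase II family and also found in chloroplasts, was at 5.27 and 21.2 FPKM (-1.84 ± 0.11, adjusted p = 2.56e-14). The editing factor MORF1 was higher in roots by 0.32 and AT5G46920, an intron maturase, lower by 0.39. With BA none of the 8 was called in roots, beside 20.5% of all genes in Col and 20.7% in ahp4. In Col shoots 3 rose, beside 959 up of 18246 genes tested. They were the RNA polymerase MGP3, from 8.41 ± 0.490 to 12.9 ± 1.04 FPKM (0.56 ± 0.10, adjusted p = 0.00431, limma), MORF1 (0.51 ± 0.10, adjusted p = 0.00595) and AT5G14580 (0.59 ± 0.15, adjusted p = 0.0238). In ahp4 shoots MORF1 and MGP3 rose, beside 534 up of 18246 genes tested. For AT5G14580 and MGP3 the BA responses of Col roots and shoots differed, by -0.79 (adjusted p = 0.00623) and -0.69 (adjusted p = 0.0132). No mitochondrial member was called for BA in either organ by the same test.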

How the data were processed

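RNA caught on poly-T beads was sequenced as paired ends, per the labels' protocols. The authors deposited 1 table of FPKM values for 30 libraries, whose genome build was TAIR10 according to the submitters' processing notes. Which aligner, counter and strand setting were used is not given in the sources used here. Whole reads were rebuilt from the FPKM steps for all features (tolerance 0.01 reads), and the authors' library scale was found to be that of median-of-ratios size factors. The members, gene lists and tests were chosen with earlier results of these data known.

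Differences were tested on log2(FPKM + 1), where the pseudocount of 1 understates changes of low genes, with limma 3.58.1 in R 4.3.3 (trended variance). A feature entered a fit where 3 of its libraries reached an FPKM of 1, which left 18 members in roots, 16 in shoots and 24 over both organs. A member could pass through the group where it is high. BA and genotype contrasts were fitted on the 4 groups of an organ, organ contrasts and the organ difference on all 8 groups. P-values were adjusted by Benjamini-Hochberg over all genes tested and called under 0.05. The fit was tested on simulated data.

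Of the 77 members, 29 were named, 24 by a length equal to that of a mitochondrial gene in RefSeq (TAIR10.1) and 12 by reference text on nuclear copies, with 7 by both; the other 48 keep their codes. Nuclear copies were sought with blastn 2.17.0 on the 5 chromosomes of TAIR10.1. The members named are all those of the functional lists, the 10 other members of highest mean FPKM, and in each comparison up to 5 called each way; nuclear lists name up to 4 called genes of smallest p. Genes beyond that rule (ATMG01170, and estimates that were not called) were chosen after their values were seen. Alternatives were other scalings, quantile normalization, a pseudocount of 0.1, no filter, limma-voom on rebuilt reads, other sets of groups in the fit, nuclear copies added, a replicate block and each library left out.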

Additional observations from a re-analysis of the deposited data

Results flagged for a closer look

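In 7 of 125 groups of 4 libraries examined, 1 library stood apart from the other 3; chance gives about 1 in 20. For rrn18 in Col shoot BA, replicate 1 was lowest at 20.9 FPKM, the others at 32.0 to 32.9. For ATMG00020 in Col shoot mock, replicate 1 was lowest at 8.38 FPKM, the others at 14.8 to 16.0, and for ATMG01170 in the same library the value was 0.0831 FPKM against 0.433 to 0.451. The small-subunit gene rps3 was highest in Col shoot BA replicate 2, at 1.05 FPKM against 0.181 to 0.298. In Col shoot mock, replicate 4 held nad4L at 2.79 FPKM against 0.412 to 0.760. The exon feature nad1C was at 0 in Col shoot BA replicate 2 against 1.48 to 1.58 FPKM in the others, and at 2.82 FPKM in ahp4 root mock replicate 2 against 1.28 to 1.41.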

How the results depend on the processing

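The organ calls of rrn18, ATMG00020 and ATMG00030 held in all 16 alternatives in Col and all 15 in ahp4. No called value changed sign, but after quantile normalization the members' median organ difference went from 0.22 to -0.09 in Col and from 0.21 to -0.10 in ahp4. Scaling by read totals, or by nuclear read totals, raised the organ calls in mock Col from 5 to 8 (8 under each), adding ATMG00660, ATMG01130 and ATMG01120. Summed FPKM in place of the share of reads lowered the summed organ difference from 2.55 to 1.62 (log2) in mock Col and from 2.72 to 1.94 in mock ahp4. The BA counts of 0 became 1 in Col roots with no filter (ATMG01170), 1 in ahp4 roots with the compared groups alone (nad4L) and 1 in Col shoots with all 8 groups in the fit (nad1C). Leaving out 1 library gave 5 to 8 organ calls in mock Col (8 without Col root mock replicate 1) and 7 to 10 in mock ahp4. It gave 0 to 1 BA calls in Col roots, ahp4 roots and Col shoots, and 0 to 1 for the organ difference in BA response. Those calls were ATMG00660 without Col root mock replicate 1 or ahp4 root mock replicate 2, nad1C without ahp4 root BA replicate 2 or Col shoot BA replicate 2, and ccmB (organ difference) without the latter. Other counts stayed at 0. The summed organ difference ran from 2.44 to 2.72 in mock Col and from 2.42 to 3.13 in mock ahp4. The causes were not tested. Requiring FPKM of 1 or more in 3 libraries would leave 24 of the 77 members. Log2(FPKM + 1) understates low features: by limma-voom nad1C differed by 2.50 and rpl16 by 2.47 in mock Col. Depth limits the other 74 features, with 56 to 259 reads per library in all.

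Replicate numbers were not taken to pair the samples. Within an organ, 10 of 24 same-numbered pairs in roots and 5 of 19 in shoots correlated above 0.1 (-0.111 to 0.359 and -0.129 to 0.317). Of differently numbered pairs, 12 of 72 and 9 of 54 did, a smaller share in both organs. The median correlation was 0.050 in roots and 0.033 in shoots for same-numbered pairs, and -0.024 and -0.009 for the others. Some shared deviation by number is therefore possible. Root and shoot libraries of the same number were not checked against each other, and the organ contrasts take them as independent. With a replicate block, 1 member (nad4L) was called for BA in ahp4 roots, and all other counts of calls were as without the block, 5 and 8 for the organ contrasts.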
